A study of Mus musculus with 6 samples.

Results

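Branched-chain amino acid breakdown was followed through 10 genes of the pathway, chosen by gene symbol, among 29072 genes of brown adipose tissue. The 10 genes encode the aminotransferase of the first step (Bcat2), 3 subunits of the branched-chain keto acid dehydrogenase complex (Bckdha, Bckdhb and Dbt), the kinase and the phosphatase of that complex (Bckdk and Ppm1k), and 4 enzymes further along (Ivd, Mccc1, Hibadh and Acadsb). All 10 were found in the deposited table, and all passed the filter on low values. Libraries made from total RNA of interscapular brown fat were sequenced. The tissue came from C57BL/6J mice that carry the genotype UCP1(-/-), here called knockout, and from wildtype mice of the same strain. Each group held 3 libraries. Ucp1 encodes the uncoupling protein that lets brown fat mitochondria release energy as heat. The labels name no age, sex or housing temperature and not which part of Ucp1 was deleted, and they also do not say that the 3 libraries of a group came from separate animals. The p-values therefore measure the spread between these libraries, which may be technical.

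Leucine, isoleucine and valine are first stripped of their amino group by an aminotransferase, which in most tissues outside the liver is the mitochondrial enzyme BCAT2. The resulting keto acids are then oxidised by the branched-chain keto acid dehydrogenase, the committed step, which is switched off when the kinase BCKDK phosphorylates its E1 alpha subunit and switched on again by the phosphatase PPM1K. After this step the 3 amino acids follow separate routes to acetyl-CoA, acetoacetate and propionyl-CoA. Brown fat is known to take up branched-chain amino acids and oxidise them in its mitochondria during heat production.

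Levels are in RPKM, a read number corrected for how long the transcript is and how deep the library was read. Comparisons between libraries still depend on how the libraries are scaled, so changes after a further scaling are also given below. The spacing of low values implied 15700000 to 18000000 reads per library. Ucp1 stood at 375, 389 and 372 RPKM in knockout replicates 1, 2 and 3, and at 3096, 1714 and 3151 RPKM in wildtype replicates 1, 2 and 3, so all knockout libraries lay below all wildtype libraries. The knockout mean was 0.143 times the wildtype mean, so Ucp1 transcript was reduced and not absent in the table. All 9 markers of brown adipocytes were detected in every library, with Fabp4, a fatty acid carrier of adipocytes, the highest at 7741 to 9270 RPKM. Of these 9 markers, 1 was called higher, 1 lower and 7 did not pass. Elovl3, an elongase of very long fatty acids, stood at 71.7, 114 and 79.0 RPKM in knockout and 32.8, 52.3 and 54.2 RPKM in wildtype (limma adjusted p = 0.0403). Prdm16, a transcriptional regulator of brown fat identity, stood at 3.50, 3.24 and 2.98 RPKM in knockout and 5.41, 4.03 and 5.49 RPKM in wildtype (limma adjusted p = 0.0382). Both calls were lost by limma on leaving out any 1 knockout library or wildtype replicate 1, and that of Prdm16 also on leaving out wildtype replicate 3, with adjusted p of 0.0609 to 0.128 for Elovl3 and 0.0814 to 0.124 for Prdm16. Both were also lost when low genes were kept (0.0936 and 0.0858), Elovl3 under median-of-ratios scaling (0.0711) and Prdm16 with its Ensembl row (0.398). The summed level of 5 liver markers was at most 1.26 RPKM in any library. The summed level of 15 skeletal muscle markers lay between 1785 and 2025 RPKM in knockout and between 61.4 and 292 RPKM in wildtype, and all 15 were called higher, so muscle RNA moved with genotype. Acta1, the actin of skeletal muscle, was the most abundant of these, at 425, 424 and 342 RPKM in the knockout and 46.5, 56.95 and 8.54 RPKM in the wildtype libraries. The summed level of 9 macrophage markers was 62.4 to 83.1 RPKM in knockout and 39.6 to 59.6 RPKM in wildtype, and 1 of its 8 tested genes was called higher (Mpeg1, a pore-forming protein of macrophages, limma adjusted p = 0.00575). The most abundant of these was Lyz2, a lysozyme, at 25.7 to 30.7 RPKM in knockout and 12.7 to 21.3 RPKM in wildtype. The summed level of 6 endothelial markers overlapped between groups, at 147 to 166 and 145 to 162 RPKM, with Cdh5, an adhesion protein of vessel walls, the highest. The part of muscle, macrophage and other cell types in the values below was not tested. In bulk tissue, fewer cells of a type and less RNA per cell cannot be told apart.

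The comparison of knockout with wildtype asks how transcripts of brown fat differ with the UCP1(-/-) genotype. Of the 10 genes, 1 rose (Bckdhb), none fell and 9 did not pass an adjusted p of 0.05 by limma over all 11541 tested genes. Over all tested genes 7.75% passed, 7% higher and 0.745% lower, so 1 of 10 is close to that background. At an unadjusted p under 0.05, 2 of the 10 (Bcat2 and Bckdhb) were higher and none was lower, against 19.9% of all tested genes higher and 23.6% in either direction. The count of genes over the whole table was 894, and it was 477 when knockout replicate 1 was left out and 457 when knockout replicate 2 was. The knockout values lay above all wildtype values for 3 of the 10 genes (Bcat2, Bckdhb and Hibadh), against 24.3% of all tested genes. For none of the 10 did all wildtype values lie above the knockout values, against 5.14% of all tested genes. The median log2 change of the 10 genes was 0.11, and that of all tested genes 0.08. Of the 10 changes 8 were positive and 2 negative, against 7917 positive and 3624 negative of all 11541 tested genes. Median-of-ratios scaling brings the median of all tested genes to -0.007, and 5.59% of all tested genes and none of the 10 then passed limma (1 of the 10, Bckdhb, had an unadjusted p under 0.05). After it the median of the 10 was 0.016, with 6 positive and 4 negative.

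**Figure D1:**
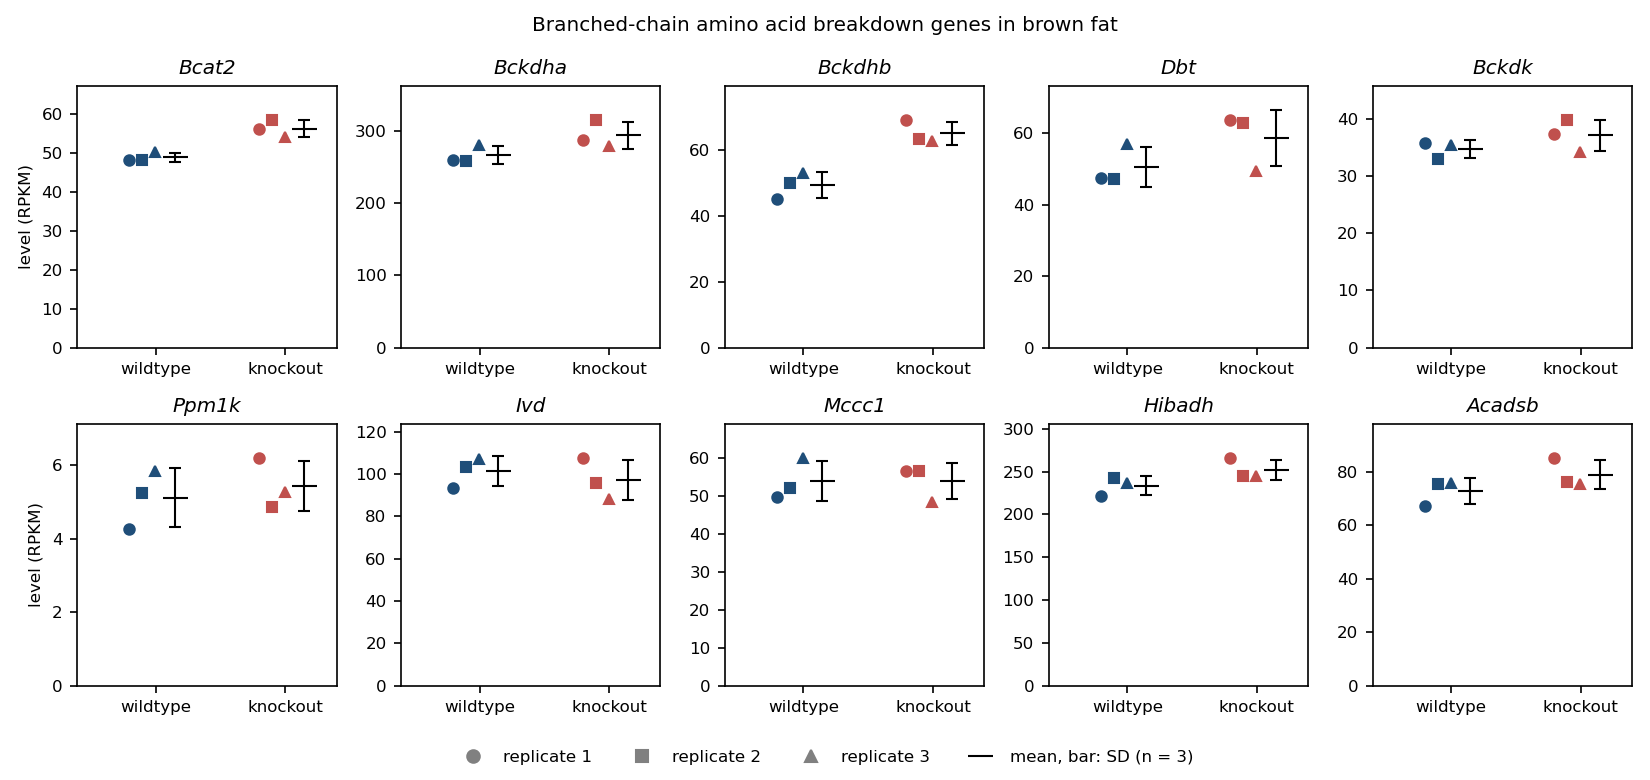
Level in RPKM (vertical axes, from 0) of each of the 10 genes in the 3 wildtype and 3 knockout libraries. Symbols mark the replicates, and the bar beside them is the mean with SD (n = 3). For Bcat2, Bckdhb and Hibadh every knockout point lies above every wildtype point, and for the other 7 genes the groups overlap.

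The levels of the 10 genes differed by up to 53.1 times within brown fat, in RPKM averaged over the 6 libraries. Bckdha was the highest at 280 RPKM and Hibadh followed at 243 RPKM. Bckdha lay above Hibadh in 6 of 6 libraries, although the ranges over libraries overlapped (259 to 315 and 221 to 266 RPKM). Ivd at 99.2 RPKM and Acadsb at 75.9 RPKM formed the next levels, and the range of each lay apart from that of the other. Bckdhb (57.2 RPKM), Dbt (54.6 RPKM), Mccc1 (54.0 RPKM) and Bcat2 (52.5 RPKM) followed, and their order changed between libraries. Bckdhb was above Dbt in 4 of 6 libraries, Dbt above Mccc1 in 3 of 6, and Mccc1 above Bcat2 in 4 of 6. Bckdk lay below them at 36.0 RPKM in every library. The order given here is that of the 1 row kept per gene. Over all deposited rows of a gene, means ran from 36.0 to 57.9 RPKM for Bckdk and from 18.6 to 66.8 RPKM for Bcat2. Ppm1k was the lowest, at 5.28 RPKM, with a range of 4.26 to 6.20 RPKM that did not reach any other of the 10 genes. The summed level of the 10 genes was 1035, 1019 and 943 RPKM in the knockout libraries and 872, 916 and 962 RPKM in the wildtype libraries, so the groups overlapped.

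Bcat2, which moves the amino group of leucine, isoleucine and valine onto 2-oxoglutarate, stood at 56.1, 58.4 and 54.0 RPKM in knockout replicates 1, 2 and 3. In wildtype replicates 1, 2 and 3 it stood at 48.3, 48.2 and 50.1 RPKM. The 3 knockout libraries lay above the 3 wildtype libraries, with means of 56.2 ± 2.196 and 48.9 ± 1.095 RPKM (SD, n = 3 each). The log2 change was 0.20 (SE 0.07, 95% interval 0.04 to 0.35) with a limma adjusted p of 0.121, so the difference did not pass. All 10 deposited rows for Bcat2 transcripts were higher in knockout, by ratios of 1.09 to 1.22, but the rows of a gene share reads and are not independent. The cytosolic aminotransferase Bcat1 stood at no more than 0.151 RPKM in any library and was not tested.

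Bckdhb, the beta subunit of the E1 component that decarboxylates the keto acids, was the 1 gene of the 10 that passed. Its level was 69.1, 63.4 and 62.7 RPKM in knockout replicates 1, 2 and 3, and 45.2, 50.0 and 53.0 RPKM in wildtype replicates 1, 2 and 3. The lowest knockout library lay above the highest wildtype library, and means were 65.1 ± 3.50 and 49.4 ± 3.93 RPKM (SD, n = 3 each), a ratio of 1.32. The log2 change was 0.39 (SE 0.08, 95% interval 0.20 to 0.58, limma adjusted p = 0.0251). All 3 deposited rows for Bckdhb gave a ratio between 1.31 and 1.32. Under median-of-ratios scaling Bckdhb no longer passed, with a log2 change of 0.30 and an adjusted p of 0.0889. It was also lost by limma on leaving out any 1 knockout library (adjusted p of 0.105, 0.0805 and 0.057 for replicates 1, 2 and 3) or wildtype replicate 1 (0.0769), with log2 changes of 0.33 to 0.42. In the same libraries, replicates 1 to 3 in order, the summed level of the 15 muscle markers was 2025, 2006 and 1785 RPKM in knockout and 258, 292 and 61.4 RPKM in wildtype, and its part in the Bckdhb difference was not tested.

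Bckdha encodes the alpha subunit of E1, which carries the serines that the kinase phosphorylates. It stood at 288, 315 and 280 RPKM in the knockout and at 260, 259 and 281 RPKM in the wildtype libraries, replicates 1 to 3 in order. The lowest knockout value lay just under the highest wildtype value, and the log2 change was 0.14 (95% interval -0.04 to 0.32, limma adjusted p = 0.324). Dbt, the E2 core of the complex that passes the acyl group to coenzyme A, stood at 63.7, 62.8 and 49.6 RPKM in knockout replicates 1, 2 and 3. In wildtype replicates 1, 2 and 3 Dbt stood at 47.4, 47.2 and 57.0 RPKM, so knockout replicate 3 lay inside the wildtype range. Its log2 change was 0.21 (95% interval -0.06 to 0.48, limma adjusted p = 0.326). The E3 subunit Dld, which the complex shares with pyruvate dehydrogenase and 2-oxoglutarate dehydrogenase, averaged 365 ± 24.0 RPKM over the knockout and 367 ± 17.5 RPKM over the wildtype libraries (SD, n = 3 each).

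Ratios taken within a library do not depend on how libraries are scaled. Apart from the kinase to phosphatase ratio, the 5 ratios given here were chosen after the values had been seen and are described without a test. The ratio of Bckdha to Bckdhb was 4.16, 4.98 and 4.46 in knockout replicates 1, 2 and 3, and 5.75, 5.18 and 5.30 in wildtype replicates 1, 2 and 3. Each knockout ratio lay below each wildtype ratio, with a log2 difference of -0.26. The ratio of Dbt to Bckdhb overlapped between groups, with means of 0.901 ± 0.102 in knockout and 1.02 ± 0.0697 in wildtype (SD, n = 3 each).

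The kinase Bckdk and the phosphatase Ppm1k set how much of the complex is active by their opposite action on E1. The values here are transcript levels, and neither the proteins nor the activity of the complex was measured. Bckdk stood at 37.4, 39.9 and 34.3 RPKM in the knockout and at 35.9, 33.0 and 35.5 RPKM in the wildtype libraries, replicates 1 to 3 in order. Ppm1k stood at 6.20, 4.88 and 5.27 RPKM in the knockout and at 4.26, 5.26 and 5.84 RPKM in the wildtype libraries. The groups overlapped for both genes. The log2 change was 0.09 for Bckdk (95% interval -0.09 to 0.27, limma adjusted p = 0.542) and 0.08 for Ppm1k (95% interval -0.19 to 0.35, limma adjusted p = 0.74), and both changes took a negative sign after median-of-ratios scaling. The ratio of Bckdk to Ppm1k was 6.03, 8.17 and 6.51 in the knockout libraries and 8.43, 6.28 and 6.08 in the wildtype libraries. Its means were 6.90 ± 1.12 and 6.93 ± 1.30 (SD, n = 3 each), the difference was smaller than the spread within either group, and the exact two-sided permutation p was 1, where 3 against 3 cannot go below 0.1. The ratio of Bckdha, the target subunit, to Bckdk was 7.92 ± 0.228 in knockout and 7.66 ± 0.375 in wildtype (SD, n = 3 each), and these groups overlapped.

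**Figure D2:**
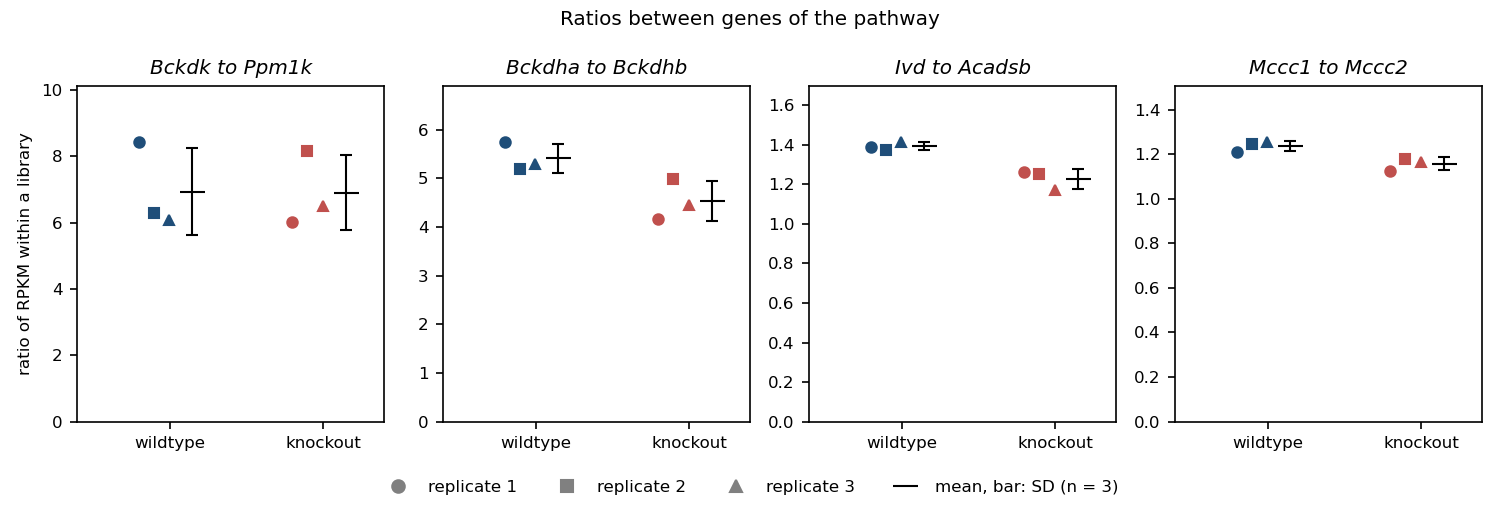
Ratio of 2 RPKM levels within each library (vertical axes, from 0) for kinase to phosphatase, the E1 subunits, the acyl-CoA dehydrogenases Ivd and Acadsb, and the 2 subunits of methylcrotonyl-CoA carboxylase. Points are libraries and the bar beside them is the mean with SD (n = 3). The groups overlap for Bckdk to Ppm1k and lie apart, with knockout lower, for the other 3 ratios. Those 3 were chosen after the values had been seen. The ratios of Dbt to Bckdhb and of Bckdha to Bckdk, whose groups overlap, are not drawn.

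On the leucine route, Ivd oxidises isovaleryl-CoA and Mccc1, the biotin-carrying subunit of methylcrotonyl-CoA carboxylase, takes part in the next step. Ivd stood at 107, 95.6 and 88.4 RPKM in knockout replicates 1, 2 and 3, and at 93.5, 103 and 107 RPKM in wildtype replicates 1, 2 and 3. The groups covered nearly the same range, and the log2 change was -0.06 (95% interval -0.28 to 0.15, limma adjusted p = 0.734). Of the 13 deposited rows for Ivd transcripts, which share reads, 12 were lower and 1 was higher in knockout. Mccc1 stood at 56.7, 56.7 and 48.5 RPKM in the knockout and at 49.7, 52.3 and 60.0 RPKM in the wildtype libraries, with means of 53.96 ± 4.71 and 54.02 ± 5.36 RPKM (SD, n = 3 each). Its 95% interval for the log2 change was -0.22 to 0.22 (limma adjusted p = 0.999).

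Mccc2, the partner subunit of Mccc1, averaged 46.6 ± 4.56 RPKM over the knockout and 43.6 ± 3.69 RPKM over the wildtype libraries (SD, n = 3 each). The ratio of Mccc1 to Mccc2 was 1.13, 1.18 and 1.17 in the knockout libraries and 1.21, 1.25 and 1.26 in the wildtype libraries, so each knockout ratio lay below each wildtype ratio. The log2 difference was -0.10.

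On the routes of isoleucine and valine, Acadsb oxidises 2-methylbutyryl-CoA and Hibadh oxidises 3-hydroxyisobutyrate, an intermediate that can leave the cell. Hibadh stood at 266, 245.3 and 245.3 RPKM in knockout replicates 1, 2 and 3, and at 221, 242 and 237 RPKM in wildtype replicates 1, 2 and 3. The lowest knockout library was 2.84 RPKM above the highest wildtype library, and the log2 change was 0.11 (95% interval -0.06 to 0.28, limma adjusted p = 0.423). Acadsb stood at 85.1, 76.4 and 75.5 RPKM in the knockout and at 67.2, 75.3 and 75.8 RPKM in the wildtype libraries. The groups overlapped, with a log2 change of 0.12 (95% interval -0.07 to 0.31, limma adjusted p = 0.434).

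Ivd and Acadsb belong to the same family of acyl-CoA dehydrogenases and act at the matching step on the leucine and isoleucine routes. The ratio of Ivd to Acadsb was 1.26, 1.25 and 1.17 in knockout replicates 1, 2 and 3, and 1.39, 1.37 and 1.42 in wildtype replicates 1, 2 and 3. Each knockout ratio lay below each wildtype ratio, with a log2 difference of -0.18.

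**Figure D3:**
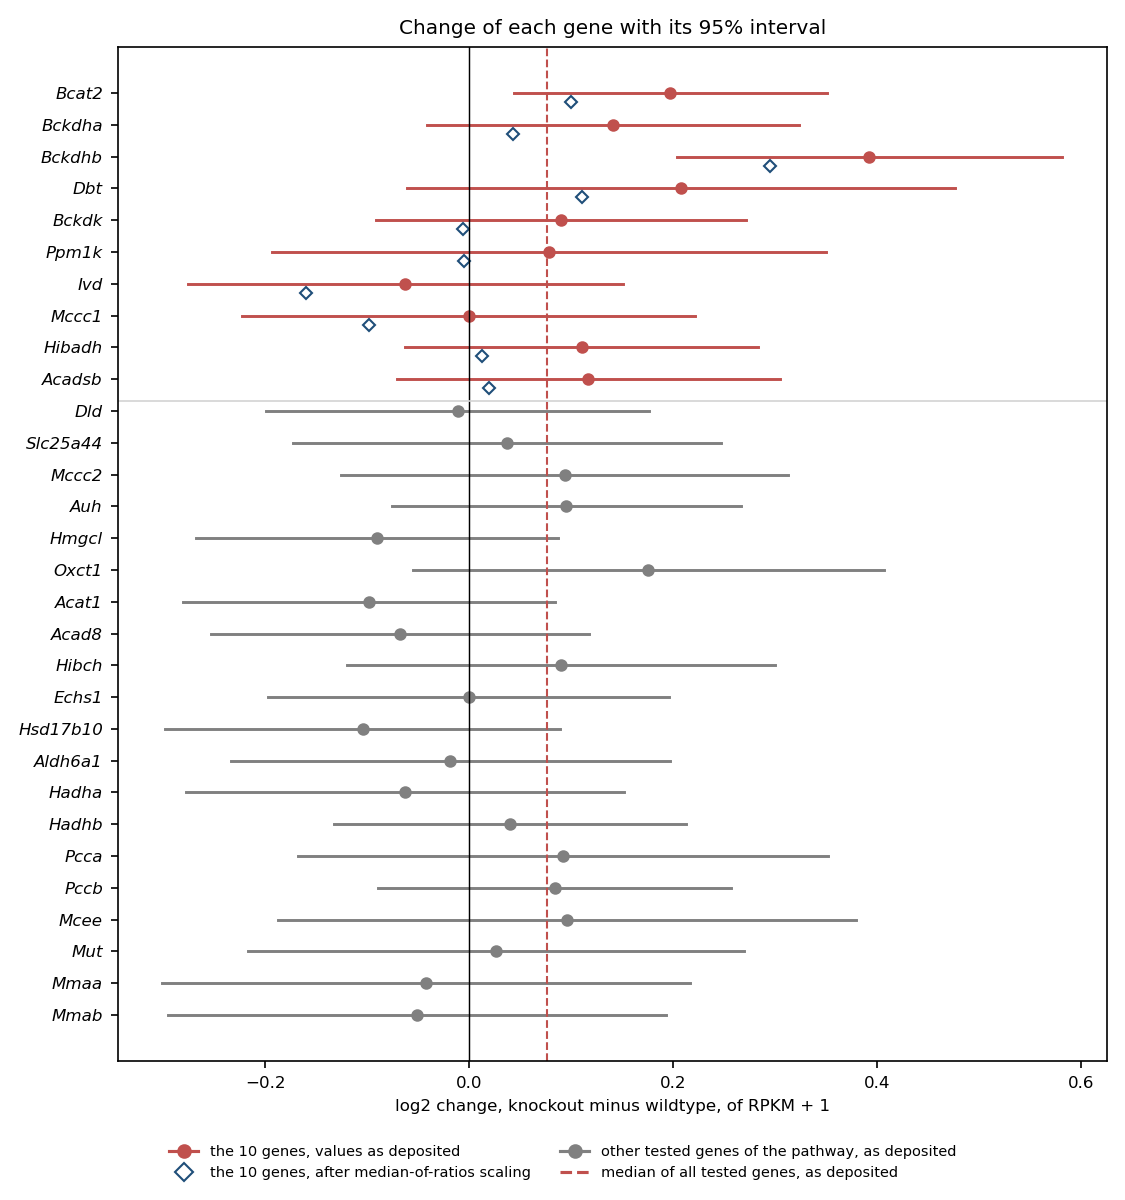
Log2 change of RPKM + 1, knockout minus wildtype (horizontal axis), for the 10 genes in red and 20 other tested genes of the pathway in grey, with 95% intervals from limma (n = 3 each). Open diamonds give the 10 genes after median-of-ratios scaling and the dashed line is the median of all tested genes; the intervals of Bcat2 and Bckdhb lie above 0 and all others include it.

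The remaining pathway was read from 22 further genes, of which 20 passed the filter on low values and Bcat1 and Abat did not. None of the 20 passed limma's test in either direction, and 0 of them reached an unadjusted p under 0.05, whereas 2724 of all tested genes (23.6%) did. After median-of-ratios scaling, 3 of the 20 had an unadjusted p under 0.05, all lower in knockout, against 21.2% of all tested genes in either direction and 9.32% lower. None of the 20 passed after adjustment with this scaling. As deposited, the median log2 change of the 20 was 0.01, with 10 positive and 10 negative. Over all tested genes 7917 changes were positive and 3624 negative. Changes of the 20 ranged from -0.10 to 0.18. The smallest p belonged to Oxct1, which activates acetoacetate for use as fuel, with means of 81.2 ± 6.60 RPKM (knockout) and 71.96 ± 8.38 RPKM (wildtype) (SD, n = 3 each; log2 change 0.18, SE 0.10, limma adjusted p = 0.332). Echs1, the enoyl-CoA hydratase shared with fatty acid oxidation, had the highest level, with means of 446 ± 19.2 and 446 ± 35.4 RPKM. Mmaa, which helps load the cobalamin cofactor of methylmalonyl-CoA mutase, had the lowest, with means of 13.5 ± 1.747 and 13.9 ± 1.601 RPKM. Slc25a44, the mitochondrial carrier for branched-chain amino acids in brown fat, averaged 41.6 ± 3.32 RPKM over the knockout and 40.5 ± 3.77 RPKM over the wildtype libraries, with a 95% interval for the log2 change of -0.17 to 0.25.

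Of 3 regulators listed with the pathway, Ppara, the fatty acid sensing nuclear receptor PPAR alpha, was higher in knockout at 65.6, 75.4 and 55.3 RPKM, against 37.9, 46.8 and 45.8 RPKM in wildtype (log2 change 0.57, SE 0.13, limma adjusted p = 0.03). Ppara no longer passed limma when low genes were kept in the fit (adjusted p = 0.066), when its Ensembl row was read (0.112), under median-of-ratios scaling (0.0689), or on leaving out knockout replicate 1 (0.1), knockout replicate 2 (0.105) or wildtype replicate 1 (0.0909). Klf15, a transcription factor known to raise amino acid breakdown genes in muscle and liver, stood at 25.9, 22.2 and 25.1 RPKM in the knockout and at 28.4, 26.5 and 39.0 RPKM in the wildtype libraries. All knockout values of Klf15 lay below all wildtype values, and its log2 change of -0.33 (SE 0.14) did not pass (limma adjusted p = 0.193). Ppargc1a, a coactivator of mitochondrial genes, did not pass either (log2 change 0.16, SE 0.16, limma adjusted p = 0.579).

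Within each group, the same libraries held the extremes for most of the 10 genes. Knockout replicate 1 held the highest knockout value for 7 of the 10 genes and knockout replicate 3 the lowest for 8, against 27.9% and 37.4% of all tested genes. Wildtype replicate 3 held the highest wildtype value for 8 of the 10 genes, against 34.7% of all tested genes, and wildtype replicate 1 the lowest for 6, against 26.2%. The same libraries were at the extremes for the 20 other genes of the pathway, with knockout replicate 1 highest for 14, knockout replicate 3 lowest for 17, wildtype replicate 3 highest for 12 and wildtype replicate 1 lowest for 12. Measured from the group's mean on the log2 scale, the median of the 10 genes was 0.08 in knockout replicate 1 and -0.07 in knockout replicate 3. It was -0.10 in wildtype replicate 1 and 0.08 in wildtype replicate 3, while the median of all tested genes stayed between -0.02 and 0.01 in all 6 libraries. For 8 of the 10 genes, all but Bcat2 and Bckdhb, the log2 range within the more variable group was wider than the difference between the group means. The share over all tested genes is not given, so that count cannot be read as particular to these genes. The values of this paragraph are descriptions of 6 libraries, without a test.

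**Figure D4:**
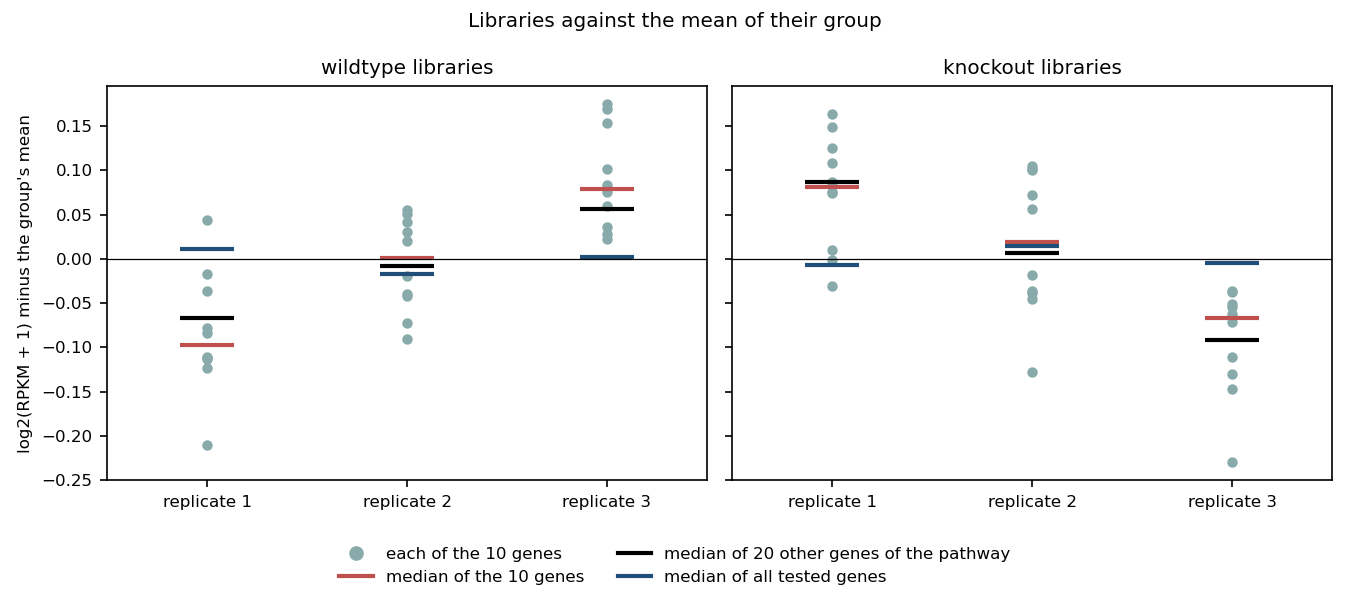
Deviation of each library from the mean of its own group, in log2(RPKM + 1) (vertical axis), for wildtype (left) and knockout (right) libraries. Points are the 10 genes and short lines are medians; the median of the 10 and that of 20 other pathway genes move together, from -0.10 to 0.08 for the 10, while the median of all tested genes stays near 0.

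Likeness of pattern was measured as the mean absolute difference, over the 6 libraries, between log2(RPKM + 1) values centred on each gene's own mean, so that 0 is an identical pattern. Among the 10 genes the closest pairs were Hibadh and Acadsb (0.0235) and Bcat2 and Bckdha (0.0339). Ivd and Mccc1 were each other's nearest (0.0588), Bckdk was nearest to Bckdha (0.0405), Ppm1k to Acadsb (0.0607) and Dbt to Bckdha (0.0971). Bckdhb had the largest distance to its nearest other gene (Bcat2, 0.0976), almost the same as that of Dbt. Among 6641 tested genes at a mean level of 5 RPKM or more, the patterns nearest to Bckdhb were those of Epb41l1 (0.0272), Rnf130 (0.0318) and Itgb5 (0.0386). A search over so many more genes can find closer patterns by its size, so these distances do not compare with those among the 10. Epb41l1, a membrane skeleton protein, stood at 16.6, 14.96 and 15.02 RPKM in the knockout and at 11.4, 11.8 and 12.5 RPKM in the wildtype libraries.

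Nothing in the labels says that counting used strand, so reads of overlapping genes may have been counted to either gene. In the GENCODE M21 annotation, exons of Bcat2, Bckdha, Hibadh and Mccc1 overlap exons of other genes. Of these, the pseudogene B230207O21Rik, on the strand opposite to Mccc1, had a mean of 11.3 RPKM over the 6 libraries. B3gnt8, on the strand opposite to Bckdha, had 0.654 RPKM. Over all 75 deposited transcript rows of the 10 genes, 56 were higher and 19 lower in knockout, and 18 of the 19 lower rows belonged to Ivd and Mccc1. Mccc1 was split, with 5 rows higher and 6 lower. Rows of a gene share reads and are not independent, and genes with more rows weigh more in these counts. By gene, 8 of the 10 changes were positive, against 7917 of all 11541 tested genes.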

How the data were processed

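Libraries were made from total RNA of snap-frozen interscapular brown fat with a TruSeq RNA v2 kit, per the labels' protocols. CASAVA and bcl2fastq appear in the submitters' processing notes. For the aligner, genome build and annotation, the sources used here give nothing. The authors' deposited table holds RPKM for 168326 transcript rows, with no header that names the unit. It was judged from low values times transcript length, of which 96.0% to 96.2% were whole multiples of 1 step for each library (tolerance 0.1 reads).

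Rows with no gene identifier (13.8%) were left out, and 1 row was kept per gene: RefSeq before Ensembl before other rows, then the highest mean. Genes averaging 1 RPKM or more in the knockout or the wildtype libraries were tested as log2(RPKM + 1), which understates changes of low genes, with limma 3.58.1 in R 4.3.3 with an intensity trend and genotype as its single factor. Two-sided p-values were adjusted by Benjamini-Hochberg over all tested genes, at a threshold of 0.05. The procedure was tested on simulated data, with planted changes larger than those of the 10 genes. The simulation therefore does not show what could be detected at their size. The members and lists were chosen with earlier results of these data known. The text names the 10 genes, Ucp1, called genes of the other pathway and regulator lists and, where none was called, those with the smallest p and the highest and lowest level, plus the most abundant gene of each marker list present. Dld, Mccc2, Slc25a44, Klf15, Ppargc1a, Bcat1, Abat, Elovl3, Prdm16, Mpeg1 and the overlapping genes were named after their values were seen. Alternatives changed the scaling, filter, pseudocount, rows, model and replicates.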

Additional observations from a re-analysis of the deposited data

How the results depend on the processing

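Bckdhb stayed higher in knockout in all 12 alternatives that could be run and passed limma in 6 of them, with log2 changes of 0.30 to 0.44. Most of these alternatives could not have reversed the direction. Every knockout value lay above every wildtype value, so leaving out a library could not do so. The filter, the replicate block and the intensity trend left the log2 change itself unaltered. The count of called genes among the 10 was 0, in place of 1, with median-of-ratios scaling and with the replicate number as a block. It ranged from 0 to 1 when a library was left out. With Ensembl rows 6 of the 10 genes were tested and 0 were called. Bckdha, Bckdhb, Dbt and Ppm1k have no Ensembl row, so that alternative could not be run for them and could not have called Bckdhb. None of the other pathway genes passed in any of 13 alternatives. The count over the whole table was 308 with Ensembl rows, where 7199 genes were tested, and 457 to 850 when a library was left out; median-of-ratios scaling gave 645 and lowered the share of higher calls from 90.4% to 76.3%. Numbered replicates share only a number in the labels, which do not say whether same-numbered libraries were handled together. Correlations of same-numbered deviations were 0.089, 0.038 and -0.018, against -0.136 to 0.07 for differently numbered libraries. With so few libraries these values cannot settle it. With the replicate number as a block, 778 genes passed and the limma adjusted p of Bckdhb was 0.0631. Changes that were near 0 changed sign: median-of-ratios scaling gave -0.0065 for Bckdk and -0.0047 for Ppm1k, summed rows gave 0.0038 and Ensembl rows 0.0365 for Mccc1. When a library was left out, log2 changes ranged from -0.0269 to 0.1626 for Ppm1k, -0.1369 to 0.0025 for Ivd, -0.0569 to 0.0764 for Mccc1, -0.0614 to 0.0528 for Echs1 and -0.1298 to 0.0439 for Mmaa. The log2 difference in the kinase to phosphatase ratio was 0.0229 with summed rows and ranged from -0.1296 to 0.1475 when a library was left out. Median-of-ratios scaling lowered the log2 change of each of the 10 genes, and those of Bckdk and Ppm1k crossed 0 with it. Where a sign changed with the rows or the libraries used, the cause was not tested. The other 5 ratios, chosen after seeing the data, kept their direction in 7 alternatives each. Where the groups lay apart, leaving out a library could not have reversed the direction. With 3 libraries a group, the 95% intervals of 8 of the 10 genes include 0, and their width limits what could be detected.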
